A study of Homo sapiens with 18 samples.

Results

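The ATF4 amino acid stress programme was followed as 40 genes, taken by symbol from a list of ATF4, its partner factors and genes known as its targets. All 40 had a row among the 26249 genes of the expression tables, and 37 were high enough to be tested. The tables come from 18 libraries of human cell lines labelled XG1 and AMO1, both given as multiple myeloma, a cancer of antibody-secreting plasma cells. Cells of each line had received DMSO, the solvent, or 100 nM or 1000 nM YKL-5-124 for 6 h, which made 6 groups of 3 libraries. YKL-5-124 is a covalent inhibitor of CDK7, the kinase of the general transcription factor TFIIH that phosphorylates RNA polymerase II and activates cell cycle kinases. No group carried an engineered allele or a further agent in the labels, all groups grew in RPMI medium with serum, and the series title calls the lines resistant without saying to what. Libraries read the 3′ ends of polyadenylated RNA, and levels are taken as FPKM, a unit that divides fragments by the transcript's length and the library's total. That scaling makes levels of different genes in such libraries not comparable. Each level below is therefore set only against the same gene in other libraries, apart from fixed FPKM cuts and sums over marker lists. Every library also had a commonest low value, which ranged from 0.0745 to 0.133 over the 18 libraries. For genes near that value the size of a log2 change is uncertain.

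When amino acids run short, unfolded protein accumulates in the endoplasmic reticulum or mitochondria are disturbed, sensor kinases phosphorylate the translation factor eIF2, and most translation slows while the ATF4 mRNA is translated more. ATF4, a transcription factor of the bZIP family, then pairs with C/EBP factors on composite promoter elements and raises genes for amino acid synthesis, amino acid import, mitochondrial one-carbon metabolism and its own feedback control. Plasma cells and myeloma cells, which make antibody at a high rate, are known to draw on this programme. Much of its control lies in translation, so the mRNA of ATF4 is not a measure of ATF4 protein.

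The element through which ATF4 and C/EBP partners are known to act, the C/EBP-ATF response element, was looked for as the letters TGATGNAA on either strand, which read TTNCATCA on the other strand, in promoter windows of 300 bases (250 before to 50 after an annotated start; RefSeq, GRCh38.p14). Of the 40 members 31 had a window, and 10 of these 31 (32.3%) held the letters, beside 4.46% of the 27305 gene symbols with windows. Counted by window, it was in 12 of 52 member windows (23.1%) and in 3.62% of all 35116. The members were listed as known ATF4 targets, so a share above that of all symbols could be foreseen from the list. It is a description of the members and no independent result. The 10 genes were CHAC1, JDP2, SLC1A5, SLC7A1, SLC3A2, CEBPG, SLC1A4, MTHFD1L, ASNS and PPP1R15B. The windows of the 6 with the smallest adjusted p in any comparison of a dose with DMSO are printed 5′ to 3′ on the strand of the gene, with the element in capitals, because of the members with the element these had the strongest tests of a change in expression. Their places are chr15:40953221-40953520 (plus strand), chr14:75427772-75428071 (plus strand), chr19:46784765-46785064 (minus strand), chr13:29595639-29595938 (minus strand), chr11:62881449-62881748 (plus strand) and chr19:33373863-33374162 (plus strand), in the order of the lines.
CHAC1: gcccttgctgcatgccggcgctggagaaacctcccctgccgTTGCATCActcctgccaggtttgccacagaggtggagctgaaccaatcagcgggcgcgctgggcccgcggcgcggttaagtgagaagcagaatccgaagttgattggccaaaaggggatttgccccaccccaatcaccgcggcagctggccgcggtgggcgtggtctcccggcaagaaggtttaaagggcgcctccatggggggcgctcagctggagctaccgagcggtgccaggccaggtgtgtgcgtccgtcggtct
JDP2: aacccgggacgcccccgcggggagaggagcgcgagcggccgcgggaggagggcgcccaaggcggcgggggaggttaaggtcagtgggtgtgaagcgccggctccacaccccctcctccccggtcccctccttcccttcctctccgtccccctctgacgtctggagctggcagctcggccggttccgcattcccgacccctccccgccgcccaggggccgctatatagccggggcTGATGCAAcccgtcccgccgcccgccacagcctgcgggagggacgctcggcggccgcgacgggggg
SLC1A5: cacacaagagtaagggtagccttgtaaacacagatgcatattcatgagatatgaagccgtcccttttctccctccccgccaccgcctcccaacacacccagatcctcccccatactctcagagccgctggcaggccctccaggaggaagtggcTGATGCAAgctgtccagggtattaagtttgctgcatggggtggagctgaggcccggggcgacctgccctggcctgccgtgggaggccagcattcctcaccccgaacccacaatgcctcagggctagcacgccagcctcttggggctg
SLC7A1: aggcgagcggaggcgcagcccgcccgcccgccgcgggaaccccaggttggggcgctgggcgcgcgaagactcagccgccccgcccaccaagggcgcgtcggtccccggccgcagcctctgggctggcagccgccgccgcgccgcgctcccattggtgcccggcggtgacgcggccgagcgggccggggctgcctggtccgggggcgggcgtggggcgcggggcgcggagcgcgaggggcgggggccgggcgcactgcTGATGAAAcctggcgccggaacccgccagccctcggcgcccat
SLC3A2: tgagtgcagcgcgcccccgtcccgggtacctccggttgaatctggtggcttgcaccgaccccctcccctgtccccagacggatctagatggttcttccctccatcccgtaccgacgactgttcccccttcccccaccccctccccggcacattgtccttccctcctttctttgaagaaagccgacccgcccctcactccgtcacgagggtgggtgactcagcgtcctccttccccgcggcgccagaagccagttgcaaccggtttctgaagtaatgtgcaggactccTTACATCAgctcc
CEBPG: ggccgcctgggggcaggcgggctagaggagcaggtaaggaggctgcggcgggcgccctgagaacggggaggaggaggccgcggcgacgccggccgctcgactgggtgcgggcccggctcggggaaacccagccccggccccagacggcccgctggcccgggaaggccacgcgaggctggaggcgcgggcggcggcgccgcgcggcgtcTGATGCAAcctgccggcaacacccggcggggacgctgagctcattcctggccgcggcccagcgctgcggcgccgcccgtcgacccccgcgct

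The element begins 209 bases before the annotated start in CHAC1, 16 before it in JDP2, 97 before it in SLC1A5 and 42 before it in CEBPG, while in SLC7A1 and SLC3A2 it lies after the start, at bases 8 and 38. CHAC1 and SLC3A2 hold it on the opposite strand. A match is a description of these letters and not of binding, and the expression values were made on the build hg19, not on this one. At 1000 nM, 6 of the 10 members with the element and 9 of the 19 tested members whose windows lack it fell in the XG1 libraries, and 3 of 10 against 7 of 19 fell in AMO1. Over all genes tested 15.7% and 15.4% fell. The difference between members with and without the element was not tested.

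Markers of the labelled cell type were checked before the results. In AMO1, 9 of 10 plasma cell markers reached 10 FPKM in each of the 9 libraries, and their summed level was 4810 to 7250 FPKM. In the libraries labelled XG1, 1 of the 10 reached that level, 5 were under 1 FPKM in all 9, and the sum was 44.4 to 75.9 FPKM. Of 14 erythroid markers, 9 were at 10 FPKM or more in every XG1 library (sum 3600 to 4310 FPKM) and 1 in every AMO1 library (24.9 to 68.7 FPKM). The sums add different genes, so each is read only against the sum of the same list in the other line. This group is called below by its label only, as the XG1 libraries, and is compared with its own DMSO libraries except where stated. The tests were two-sided and made with limma on log2(FPKM + 1) over all 12204 genes with a group mean of at least 1 FPKM, log2 changes are given ± SE, and a gene is said to rise or fall where its adjusted p is under 0.05. Changes on that scale understate those of genes at low FPKM. Whether replicates came from separate cultures is not in the labels, and the p-values therefore cover the spread among these libraries alone, which may be technical.

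Among the 18 libraries, 2 stood apart. AMO1 DMSO replicate 3 was below both other DMSO libraries for 28 of the 37 tested members and for 71.0% of all genes tested. Its median deviation from the mean of those other 2 libraries was -0.418 log2 over the members and -0.273 over all genes. XG1 1000 nM replicate 2 was below its 2 companions for 27 of 37 members and 69.2% of all genes, with medians of -0.219 and -0.274. The median spike-in deviations of these 2 libraries, taken from the mean of all 18 libraries, were -0.00381 and -0.00315 log2. Member calls that turn on either library are given with and without it.

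After the inhibitor most members that changed were lower, in both lines, and 2 members were higher in AMO1. At 100 nM, 12 of 37 members fell and 0 rose in the XG1 libraries, where 6.61% of all genes tested changed, 3.98% lower and 2.63% higher. At 1000 nM, 19 of 37 fell and 0 rose there, against 17.6% of all genes (15.7% lower, 1.90% higher). In AMO1, 2 members fell and 1 rose at 100 nM, against 2.20% of all genes (1.76% lower, 0.434% higher), and 13 fell and 2 rose at 1000 nM, against 17.1% (15.4% lower, 1.78% higher). The members' median log2 change was -0.41 and -0.59 at the 2 doses in the XG1 libraries, beside -0.01 and -0.19 over all genes tested, and -0.22 and -0.43 in AMO1, beside -0.09 and -0.18.

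At 1000 nM 10 members fell in both lines: ATF4, DDIT3, CHAC1, INHBE, TRIB3, PSAT1, MTHFD2, SLC1A5, SLC38A2 and SLC7A1. After centring each library on its median, INHBE, PSAT1 and SLC38A2 were the 3 of these 10 still called in both. CHAC1 and INHBE fell in all 4 comparisons of a dose with DMSO, although the doses of a line share their DMSO libraries. In AMO1 at 100 nM the CHAC1 call ended in 11 of 16 alternative settings and the INHBE call in 1. Over the 4 comparisons 22 members fell in at least 1, and SESN2 and PPP1R15A were the 2 that rose in any. The shares of all genes called in both lines, in all 4 comparisons or in at least 1 were not counted. These shared member counts therefore have no background beside them. A negative log2 change in all 4, called or not, was found for 30 of 37 (81.1%), beside 35.7% of all genes tested; after centring it was found for 18 members (48.6%), beside 2079 of the 12204 genes. The 3 members too low to test, NUPR1, STC2 and VLDLR, reached at most 0.466, 0.977 and 0.350 FPKM in any library.

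Groups of 3 libraries lay apart, with every treated library below every DMSO library, for 23 members at 100 nM and 29 at 1000 nM in the XG1 libraries, where 16.1% and 28.0% of all genes did. In AMO1 this held for 6 and 21 members, against 14.4% and 31.2% of all genes. In the other direction it held for 1 member (CTH) at each dose in the XG1 libraries, beside 11.3% and 4.15% of all genes, and in AMO1 for 3 members at 100 nM (SESN2, PPP1R15A and SHMT2) and 2 at 1000 nM (SESN2 and PPP1R15A), beside 4.40% and 4.44%.

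The scale of the libraries bears on these counts. Centring every library on its median moved the median change of all genes at 1000 nM from -0.192 to 0.0664 in the XG1 libraries and from -0.184 to 0.110 in AMO1, and turned 1920 lower and 232 higher genes into 969 and 969 in the XG1 libraries and 1874 and 217 into 815 and 1012 in AMO1. Of the members 14 then fell and 1 rose in the XG1 libraries (median -0.329), and 5 fell and 2 rose in AMO1 (median -0.137). The calls that ended were those of GPT2, MTHFD2, SLC6A9, SLC7A11 and TRIB3 in the XG1 libraries (changes of -0.51 to -0.29 after centring, adjusted p 0.0861 to 0.173) and those of ATF4, CHAC1, DDIT3, EIF4EBP1, MTHFD2, PYCR1, SLC1A5 and SLC7A1 in AMO1 (-0.81 to -0.10, adjusted p 0.0649 to 0.664). With quantile normalization 16 fell and 1 rose in the XG1 libraries and 8 fell and 2 rose in AMO1. It called 19.5% and 15.3% of all genes. With scaling on the ERCC spike-ins, synthetic RNAs added to each sample, 19 fell and 0 rose and 14 fell and 2 rose. Of all genes 16.3% and 17.3% were then called. The median spike-in deviations of the 18 libraries lay between -0.0783 and 0.0729 log2. Spike-in scaling therefore moved the libraries little, and its counts were bound to lie near those of the main fit. At 100 nM, centring gave 888 lower and 611 higher genes and 15 lower members in the XG1 libraries, and 188 lower and 289 higher genes with 1 lower and 2 higher members in AMO1. In these bulk libraries, fewer cells with a transcript and less of it per cell cannot be told apart.

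**Figure D1:**
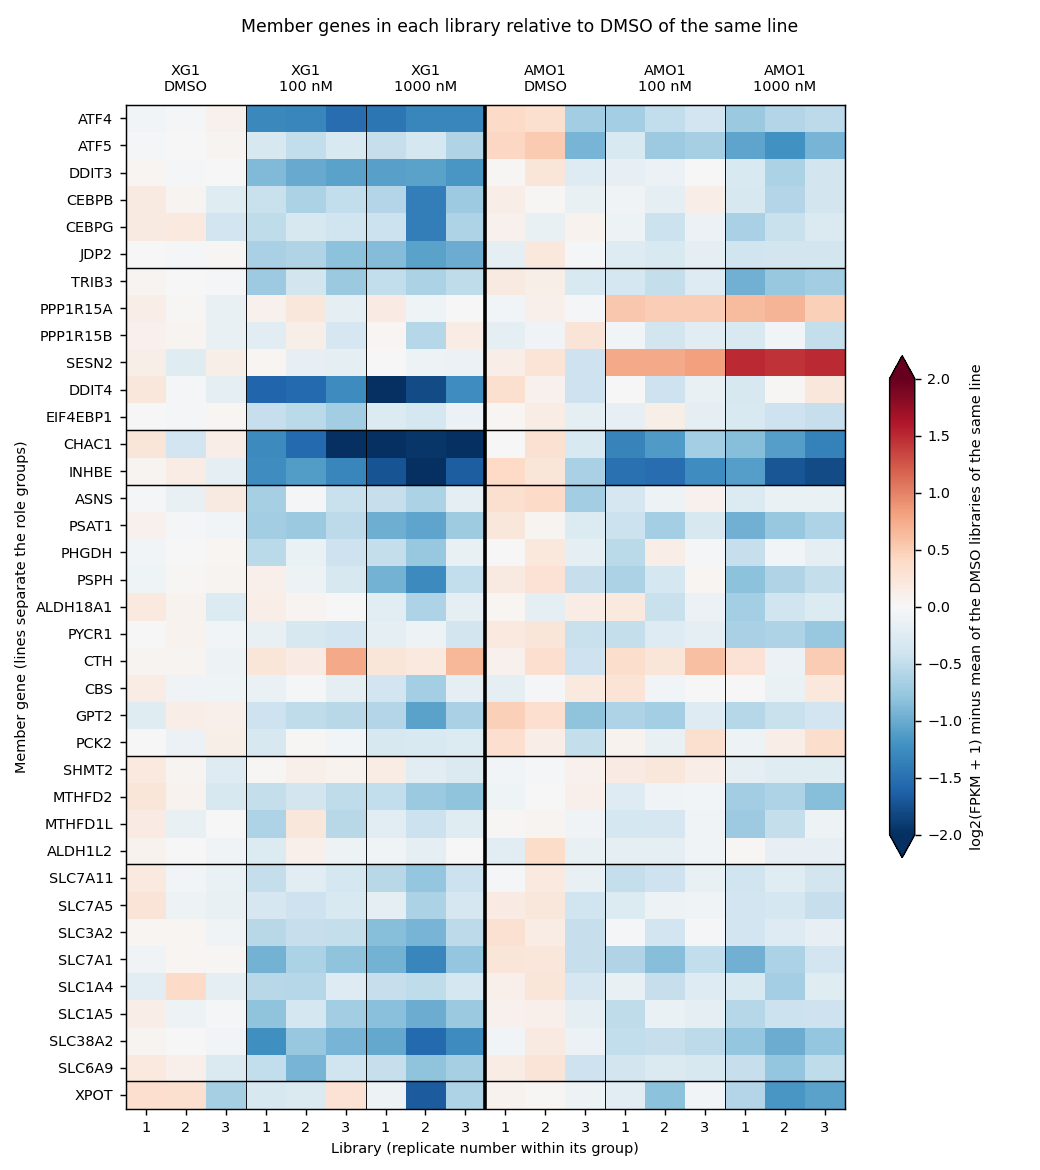
Each row is 1 of the 37 tested members and each column 1 library; colour is log2(FPKM + 1) minus the mean of the 3 DMSO libraries of the same line, blue for lower and red for higher, with colours ending at the ends of the scale bar, and horizontal lines separate the role groups. The treated XG1 columns are blue for ATF4, DDIT3, DDIT4, CHAC1, INHBE and the transporters, SESN2 and PPP1R15A are red in the treated AMO1 columns, and AMO1 DMSO replicate 3 is paler or bluer than its 2 companions in most rows.

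ATF4 itself and its partner factors came first. Of 6 tested factors 3 fell at 100 nM and 5 at 1000 nM in the XG1 libraries, beside 3.98% and 15.7% of all genes. In AMO1 0 and 3 factors fell, beside 1.76% and 15.4% of all genes. Their median change at 1000 nM was -0.94 in the XG1 libraries and -0.45 in AMO1, beside -0.19 and -0.18 over all genes. ATF4 stood in the XG1 libraries at 115, 117 and 126 FPKM in DMSO, 48.4, 47.7 and 41.0 at 100 nM and 43.2, 47.6 and 47.5 at 1000 nM. Every treated library was far below every DMSO library, and the doses lay together. The changes were -1.37 ± 0.20, adjusted p = 0.000324 at 100 nM and -1.35 ± 0.20, adjusted p = 0.000163 at 1000 nM. In AMO1 ATF4 was at 513, 489 and 242 FPKM in DMSO, 246, 281 and 302 at 100 nM and 235, 262 and 275 at 1000 nM. DMSO replicate 3 was as low as the treated ones, so the groups overlapped. The change was -0.51 ± 0.20, adjusted p = 0.204 at 100 nM and -0.61 ± 0.20, adjusted p = 0.0394 at 1000 nM, where the call ended without DMSO replicate 1 or 2, or without 1000 nM replicate 1, 2 or 3 (adjusted p 0.0616 to 0.206). Without AMO1 DMSO replicate 3 the changes were -0.86 at 100 nM (adjusted p = 0.000427) and -0.96 (adjusted p = 2.89e-05) at 1000 nM.

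DDIT3, which encodes the stress factor CHOP, was in the XG1 libraries at 28.7, 26.9 and 27.8 FPKM in DMSO, 14.7, 13.4 and 12.8 at 100 nM and 12.5, 12.7 and 11.9 at 1000 nM. The treated libraries stood clear of all DMSO libraries, and DDIT3 fell at both doses (-0.98 ± 0.14, adjusted p = 0.000342, and -1.10 ± 0.14, adjusted p = 3.8e-05). In AMO1 it was at 46.5, 54.4 and 38.0 FPKM in DMSO, 40.8, 42.0 and 45.6 at 100 nM and 36.8, 29.3 and 35.4 at 1000 nM. All 1000 nM libraries were below all DMSO libraries there, while the 100 nM libraries lay among them. DDIT3 changed by -0.10 ± 0.14, adjusted p = 0.847 at 100 nM, a value that turned to 0.08 when libraries were centred on their median and to 0.02 without DMSO replicate 2. It fell at 1000 nM (-0.43 ± 0.14, adjusted p = 0.0437), a call that ended without DMSO replicate 1 or 2, or without 1000 nM replicate 1, 2 or 3 (adjusted p 0.064 to 0.217), and after centring (-0.14, adjusted p = 0.536).

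JDP2, a bZIP repressor, was in the XG1 libraries at 2.37, 2.33 and 2.45 FPKM in DMSO, 1.15, 1.23 and 0.911 at 100 nM and 0.859, 0.608 and 0.700 at 1000 nM. The 3 groups did not overlap, and JDP2 fell at both doses (-0.69 ± 0.14, adjusted p = 0.00629, and -0.98 ± 0.14, adjusted p = 0.000168). In AMO1 its levels were 0.373, 0.795 and 0.504 FPKM in DMSO, 0.288, 0.255 and 0.367 at 100 nM and 0.172, 0.195 and 0.194 at 1000 nM. These are low values, with the treated libraries below the DMSO libraries, and the change passed the test at neither dose (-0.25, adjusted p = 0.442, and -0.38, adjusted p = 0.0752). It was called at 1000 nM with quantile normalization (adjusted p = 0.0339) and with a pseudocount of 0.1 (log2 change -1.15, adjusted p = 0.0125). The commonest low values of the AMO1 1000 nM libraries were 0.0819, 0.0844 and 0.0925, not far below these JDP2 levels. The size of the JDP2 change with a pseudocount of 0.1 is therefore uncertain. CEBPB and CEBPG, C/EBP factors that dimerise with ATF4, fell at 1000 nM in the XG1 libraries (-0.90 ± 0.18, adjusted p = 0.00234, and -0.81 ± 0.22, adjusted p = 0.0138) and passed in no other dose comparison. CEBPB lost no call when a library was left out, and CEBPG ended without DMSO replicate 1 or 2, or without 1000 nM replicate 2 (adjusted p 0.0676 to 0.0924). At 100 nM there they changed by -0.52 (adjusted p = 0.101) and -0.41 (adjusted p = 0.301). ATF5, a paralog of ATF4, fell in AMO1 at 1000 nM (-1.06 ± 0.26, adjusted p = 0.00762), a call that ended without DMSO replicate 1 or 2 (adjusted p 0.0553 to 0.0647); in the XG1 libraries it changed by -0.47 (adjusted p = 0.228). The difference between the lines in ATF5 did not pass the test (0.59, adjusted p = 0.663), but did without AMO1 DMSO replicate 3 (1.05, adjusted p = 0.0259).

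The feedback and signalling members split. TRIB3, a pseudokinase that binds ATF4 and restrains it, was in the XG1 libraries at 27.8, 26.9 and 26.0 FPKM in DMSO, 15.8, 20.6 and 15.7 at 100 nM and 18.7, 17.1 and 18.6 at 1000 nM. All treated libraries were below all DMSO libraries. It fell at both doses (-0.61 ± 0.15, adjusted p = 0.0181, and -0.55 ± 0.15, adjusted p = 0.0171). The call at 100 nM ended without DMSO replicate 1 or 2, or without 100 nM replicate 1 or 3 (adjusted p 0.0646 to 0.0843), and that at 1000 nM without DMSO replicate 1 or 2, or without 1000 nM replicate 2 (adjusted p 0.0532 to 0.0664). In AMO1 TRIB3 was at 76.9, 73.5 and 54.8 FPKM in DMSO, 52.8, 48.5 and 56.3 at 100 nM and 34.2, 39.4 and 41.5 at 1000 nM. The 1000 nM libraries were the lowest and clear of the rest, and TRIB3 fell at 1000 nM (-0.81 ± 0.15, adjusted p = 0.00122). At 100 nM it changed by -0.36 ± 0.15, adjusted p = 0.242, and was called without DMSO replicate 3 (-0.51, adjusted p = 0.0278).

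SESN2, a stress-induced inhibitor of mTORC1 signalling, moved in the opposite direction in AMO1. Its levels there were 36.5, 40.3 and 24.7 FPKM in DMSO, 56.5, 56.8 and 59.2 at 100 nM and 95.5, 92.2 and 95.4 at 1000 nM. The 3 groups did not overlap and each step up in dose was a step up in level. SESN2 rose by 0.78 ± 0.16, adjusted p = 0.0131 at 100 nM and 1.48 ± 0.16, adjusted p = 7.42e-06 at 1000 nM. The call at 100 nM ended without 100 nM replicate 2 (adjusted p = 0.0512), and the call at 1000 nM held without each library in turn. In the XG1 libraries SESN2 stood at 15.5, 11.9 and 15.5 FPKM in DMSO, 14.7, 12.6 and 12.3 at 100 nM and 14.2, 13.2 and 13.0 at 1000 nM. Those groups overlapped, with changes of -0.10, adjusted p = 0.807, and -0.07, adjusted p = 0.829; the latter was 0.19 after centring and 0.25 after quantile normalization. PPP1R15A, also called GADD34, which recruits the phosphatase that dephosphorylates eIF2, rose in AMO1 at 1000 nM (0.60 ± 0.14, adjusted p = 0.0055). It was at 25.4, 28.4 and 25.9 FPKM in DMSO, 38.9, 37.5 and 37.7 at 100 nM and 41.8, 43.1 and 37.4 at 1000 nM, and no treated library overlapped a DMSO library. At 100 nM the change was 0.50, adjusted p = 0.0633, which passed without DMSO replicate 3 (0.49, adjusted p = 0.0399). In the XG1 libraries PPP1R15A changed by 0.04 and 0.02 at the 2 doses (adjusted p = 0.93 and 0.958). PPP1R15B, the constitutive partner of that phosphatase, passed in no comparison of a dose with DMSO.

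DDIT4, also called REDD1, another inhibitor of mTORC1, was in the XG1 libraries at 63.4, 52.5 and 47.7 FPKM in DMSO, 17.3, 17.9 and 21.99 at 100 nM and 11.6, 14.9 and 22.3 at 1000 nM. No treated library came near a DMSO library. DDIT4 fell by 1.47 ± 0.22 at 100 nM (adjusted p = 0.000395) and by 1.72 ± 0.22 at 1000 nM (adjusted p = 3.25e-05). In AMO1 it was at 252, 213 and 149.99 FPKM in DMSO, 199.6, 151 and 180.2 at 100 nM and 161, 204 and 234 at 1000 nM. These 3 groups overlapped throughout, with changes of -0.19, adjusted p = 0.771 at 100 nM, and -0.02, adjusted p = 0.973 at 1000 nM; the latter was 0.27 after centring and 0.16 after quantile normalization. EIF4EBP1, which encodes a repressor of cap-dependent translation, fell at 100 nM in the XG1 libraries (-0.57 ± 0.13, adjusted p = 0.0147) and at 1000 nM in AMO1 (-0.40 ± 0.13, adjusted p = 0.0459). The former call ended without 100 nM replicate 3 (adjusted p = 0.0738), the latter without DMSO replicate 1 or 2, or without 1000 nM replicate 1, 2 or 3 (adjusted p 0.0792 to 0.184). At 1000 nM in the XG1 libraries its change was -0.25, adjusted p = 0.222, and 0.01 after centring.

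CHAC1, an enzyme that degrades glutathione, and INHBE, a secreted activin subunit, had the largest falls of all members in the XG1 libraries at 1000 nM. CHAC1 stood there at 7.196, 4.36 and 6.67 FPKM in DMSO, 1.87, 1.36 and 0.361 at 100 nM and 0.261, 0.812 and 0.264 at 1000 nM. At 1000 nM all 3 libraries were under 1 FPKM. CHAC1 fell by 1.73 ± 0.26 at 100 nM (adjusted p = 0.000494) and by 2.29 ± 0.26 at 1000 nM (adjusted p = 1.06e-05). In AMO1 CHAC1 was at 10.7, 13.5 and 8.54 FPKM in DMSO, 3.67, 4.37 and 6.31 at 100 nM and 5.48, 4.50 and 3.59 at 1000 nM. Both doses lay below DMSO without overlap, and at about the same height as each other. It fell by 1.05 ± 0.26 (adjusted p = 0.0411) and by 1.10 ± 0.26 (adjusted p = 0.0066), and the call at 100 nM ended without DMSO replicate 1 or 2, or without 100 nM replicate 1 or 2 (adjusted p 0.12 to 0.178).

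INHBE was in the XG1 libraries at 4.36, 4.69 and 3.50 FPKM in DMSO, 1.18, 1.38 and 1.09 at 100 nM and 0.552, 0.152 and 0.642 at 1000 nM. The 3 groups were in the order of dose with no overlap. It fell by 1.22 ± 0.24 (adjusted p = 0.0041) and by 1.85 ± 0.24 (adjusted p = 3.72e-05). In AMO1 its levels were 8.31, 7.40 and 3.51 FPKM in DMSO, 1.52, 1.45 and 1.97 at 100 nM and 2.28, 1.15 and 1.05 at 1000 nM. Even DMSO replicate 3, the lowest, was above all 6 treated ones. INHBE fell by 1.42 ± 0.24 (adjusted p = 0.00271) and by 1.54 ± 0.24 (adjusted p = 0.000259), and no call of INHBE ended when 1 library was left out. The INHBE level of 0.152 FPKM in XG1 1000 nM replicate 2 was not far above that library's commonest low value of 0.081. Both CHAC1 and INHBE are at low FPKM, where the pseudocount of 1 matters: CHAC1 in AMO1 at 1000 nM was not called with a pseudocount of 0.1 (adjusted p = 0.0686). It was also not called at this dose after centring (adjusted p = 0.0649) or with quantile normalization. At 100 nM in AMO1 the call of CHAC1 ended with each of these 3 settings too.

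Enzymes of amino acid synthesis were called in smaller numbers. Of 10, 1 fell at 100 nM and 3 at 1000 nM in the XG1 libraries, and 0 and 2 in AMO1. At 100 nM 3.98% of all genes fell in the XG1 libraries and 1.76% in AMO1. The median change at 1000 nM was -0.42 and -0.34, beside -0.19 and -0.18 over all genes. The 3 of 10 and 2 of 10 at 1000 nM stand beside 15.7% and 15.4% of all genes called lower, so the AMO1 share is near the background. PSAT1, the aminotransferase of serine synthesis, was in the XG1 libraries at 103, 94.8 and 93.6 FPKM in DMSO, 59.6, 57.7 and 67.4 at 100 nM and 48.9, 46.0 and 59.0 at 1000 nM. Every treated library was below every DMSO library. It fell by 0.65 ± 0.15 (adjusted p = 0.0151) and by 0.91 ± 0.15 (adjusted p = 0.000524), the first call ending without DMSO replicate 1, or without 100 nM replicate 1 or 2 (adjusted p 0.0535 to 0.0608). In AMO1 PSAT1 was at 86.4, 76.4 and 60.5 FPKM in DMSO, 54.4, 45.7 and 58.6 at 100 nM and 37.4, 43.1 and 47.7 at 1000 nM. The groups again lay apart from DMSO. The change was -0.48 ± 0.15, adjusted p = 0.112 at 100 nM (-0.62 and adjusted p = 0.0144 without DMSO replicate 3), and PSAT1 fell at 1000 nM (-0.78 ± 0.15, adjusted p = 0.0019).

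The other enzymes of serine synthesis gave differing results. PSPH, the phosphatase that completes it, fell in the XG1 libraries at 1000 nM (-0.90 ± 0.22, adjusted p = 0.00881) but changed by -0.11 at 100 nM (adjusted p = 0.868). That call ended without 1000 nM replicate 2 (adjusted p = 0.0605). In AMO1 at 1000 nM PSPH changed by -0.63 (adjusted p = 0.0568), and by -0.86 (adjusted p = 0.00886) without DMSO replicate 3. PHGDH, the entry enzyme, passed in no dose comparison, with -0.46, adjusted p = 0.107 in the XG1 libraries at 1000 nM and -0.61 (adjusted p = 0.0384) without 1000 nM replicate 3. GPT2, a mitochondrial alanine aminotransferase, fell in the XG1 libraries at 1000 nM (-0.77 ± 0.24, adjusted p = 0.0344), a call that ended without DMSO replicate 2 or 3, or without 1000 nM replicate 2 (adjusted p 0.0861 to 0.163). PYCR1, an enzyme of proline synthesis, fell in AMO1 at 1000 nM (-0.67 ± 0.16, adjusted p = 0.00594), a call that ended after centring (-0.38, adjusted p = 0.161). In the XG1 libraries it changed by -0.21, adjusted p = 0.394, and by 0.04 after centring.

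ASNS, asparagine synthetase, a much used reporter of ATF4 activity, passed in no dose comparison. It was in the XG1 libraries at 33.9, 31.5 and 39.7 FPKM in DMSO, 21.7, 33.9 and 25.3 at 100 nM and 25.0, 22.03 and 30.7 at 1000 nM. The 1000 nM libraries were all below DMSO, by a little, and the change was -0.43 ± 0.23, adjusted p = 0.211. In AMO1 ASNS was at 148, 155 and 72.8 FPKM in DMSO, 94.2, 111 and 126 at 100 nM and 97.7, 108 and 109 at 1000 nM. The treated libraries lay between DMSO replicate 3 and the other two, so the change at 1000 nM of -0.18, adjusted p = 0.671 became -0.53 (adjusted p = 0.0339) without DMSO replicate 3, 0.01 without DMSO replicate 2 and 0.11 after centring. CTH, an enzyme of cysteine synthesis, was the member with the highest change in the XG1 libraries at 1000 nM, at 0.37 ± 0.22, adjusted p = 0.27; its treated libraries, at 5.35, 5.00 and 8.09 FPKM and 5.32, 5.13 and 7.51, were all above DMSO at 4.57, 4.55 and 3.97, and it passed the test as higher once libraries were centred (0.63, adjusted p = 0.0300) and after quantile normalization (0.65, adjusted p = 0.0284). In AMO1 CTH changed by 0.23 at 1000 nM (adjusted p = 0.55). CBS, which acts before CTH, ALDH18A1, the entry enzyme of proline synthesis, and PCK2, the mitochondrial PEP carboxykinase, passed in no dose comparison.

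In mitochondrial one-carbon metabolism 1 of 4 members fell at 1000 nM in each line (25%), beside 15.7% and 15.4% of all genes called lower. The single member to pass in any dose comparison was MTHFD2, which oxidises methylene-tetrahydrofolate. It fell at 1000 nM in the XG1 libraries (-0.68 ± 0.15, adjusted p = 0.00323) and in AMO1 (-0.72 ± 0.15, adjusted p = 0.00212), and both calls held without each library in turn but ended after centring (adjusted p = 0.0861 and 0.0826). The XG1 levels were 108, 96.1 and 73.2 FPKM in DMSO, 65.3, 70.9 and 63.8 at 100 nM and 64.5, 54.2 and 52.0 at 1000 nM, and the AMO1 levels 194, 203 and 219 FPKM in DMSO, 171, 196 and 198 at 100 nM and 126, 133 and 113 at 1000 nM. All 1000 nM libraries were below all DMSO libraries in each line. At 100 nM in the XG1 libraries MTHFD2 changed by -0.45 (adjusted p = 0.0702), and by -0.61 (adjusted p = 0.0233) without DMSO replicate 3. SHMT2, which feeds serine carbon into this route, had changes between -0.23 and 0.18 in the 4 dose comparisons, and MTHFD1L and ALDH1L2, the formate and formyl-tetrahydrofolate enzymes, had changes between -0.43 and -0.09; none of the 3 passed.

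Most of the amino acid transporters fell in the XG1 libraries at 1000 nM. Of 8, 3 fell at 100 nM and 6 at 1000 nM there, beside 3.98% and 15.7% of all genes, and 0 and 3 in AMO1, beside 1.76% and 15.4%. All 8 had a negative change in each of the 4 comparisons, as 35.7% of all genes did, and 6 of the 8 did after centring. Their median at 1000 nM was -0.70 in the XG1 libraries and -0.44 in AMO1. SLC38A2, also called SNAT2, a sodium-coupled importer of small neutral amino acids, was in the XG1 libraries at 26.1, 25.4 and 24.1 FPKM in DMSO, 10.2, 14.52 and 12.8 at 100 nM and 11.9, 7.92 and 9.92 at 1000 nM. No treated library overlapped DMSO. It fell by 0.97 ± 0.16 (adjusted p = 0.00103) and by 1.28 ± 0.16 (adjusted p = 3.2e-05). In AMO1 SLC38A2 was at 23.2, 27.6 and 22.2 FPKM in DMSO, 16.9, 17.3 and 16.6 at 100 nM and 13.8, 11.6 and 13.8 at 1000 nM. The 3 groups lay one below the other with no overlap. The change was -0.49 ± 0.16, adjusted p = 0.118 at 100 nM and passed at 1000 nM (-0.84 ± 0.16, adjusted p = 0.00144), and no SLC38A2 call ended when 1 library was left out.

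SLC7A1, the cationic amino acid importer CAT1, was in the XG1 libraries at 7.46, 8.17 and 8.04 FPKM in DMSO, 3.61, 4.76 and 4.10 at 100 nM and 3.62, 2.61 and 4.17 at 1000 nM. The DMSO libraries were all above the treated ones. It fell by 0.79 ± 0.20 (adjusted p = 0.0217) and by 1.01 ± 0.20 (adjusted p = 0.00206), the former ending without DMSO replicate 1, 2 or 3, or without 100 nM replicate 1 or 3 (adjusted p 0.0534 to 0.0896). In AMO1 SLC7A1 was at 30.2, 29.8 and 18.1 FPKM in DMSO, 16.4, 13.7 and 17.7 at 100 nM and 12.5, 16.0 and 19.2 at 1000 nM. DMSO replicates 1 and 2 were well above the treated libraries and replicate 3 level with the highest of them. The change was -0.65 ± 0.20, adjusted p = 0.0993 at 100 nM and -0.66 ± 0.20, adjusted p = 0.0305 at 1000 nM, where the call ended without DMSO replicate 1 or 2, or without 1000 nM replicate 1 or 2 (adjusted p 0.0764 to 0.164). Without DMSO replicate 3 the change at 100 nM was -0.88 (adjusted p = 0.0101).

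SLC1A5, the glutamine importer ASCT2, was in the XG1 libraries at 69.8, 59.7 and 62.3 FPKM in DMSO, 36.2, 49.7 and 39.0 at 100 nM and 35.1, 31.5 and 37.6 at 1000 nM. All treated libraries were below DMSO. It fell by 0.62 ± 0.15 (adjusted p = 0.0161), a call that ended without DMSO replicate 1, or without 100 nM replicate 1 or 3 (adjusted p 0.0679 to 0.0824), and by 0.86 ± 0.15 (adjusted p = 0.000605). In AMO1 SLC1A5 was at 154, 157 and 129 FPKM in DMSO, 102, 133 and 128 at 100 nM and 97.9, 108 and 109.5 at 1000 nM. The 1000 nM libraries stood below DMSO and the 100 nM libraries overlapped it. The changes were -0.28 ± 0.15, adjusted p = 0.399, and -0.47 ± 0.15, adjusted p = 0.0333; the call at 1000 nM ended without DMSO replicate 1 or 2, or without 1000 nM replicate 1, 2 or 3 (adjusted p 0.0578 to 0.129).

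SLC3A2, the heavy chain shared by the exchangers SLC7A5 and SLC7A11, fell in the XG1 libraries at 1000 nM (-0.77 ± 0.17, adjusted p = 0.00472), with -0.50, adjusted p = 0.0944 at 100 nM. SLC7A11, the cystine importer, fell there too (-0.59 ± 0.16, adjusted p = 0.0161), a call that ended without DMSO replicate 1, or without 1000 nM replicate 2 (adjusted p 0.0769 to 0.0867), as did SLC6A9, a glycine importer (-0.64 ± 0.20, adjusted p = 0.0297), which ended without DMSO replicate 1 or 2, or without 1000 nM replicate 2 or 3 (adjusted p 0.0526 to 0.132). SLC7A11 and SLC6A9 were at low FPKM in every library. SLC7A5, the leucine exchanger LAT1, and SLC1A4, a serine and alanine exchanger, passed in no dose comparison. XPOT, which exports tRNA from the nucleus, was the member with the widest spread: it was at 5.29, 5.20 and 2.15 FPKM in DMSO and 3.63, 0.559 and 2.25 at 1000 nM in the XG1 libraries, where the groups overlapped (-0.80 ± 0.34, adjusted p = 0.117). The XG1 change passed without DMSO replicate 3 (-1.12, adjusted p = 0.0314) or without 1000 nM replicate 1 (-1.14, adjusted p = 0.0299). In AMO1 XPOT was at 3.11, 2.98 and 2.66 FPKM in DMSO and 1.60, 0.746 and 0.862 at 1000 nM without overlap (-0.94 ± 0.34, adjusted p = 0.0658).

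**Figure D2:**
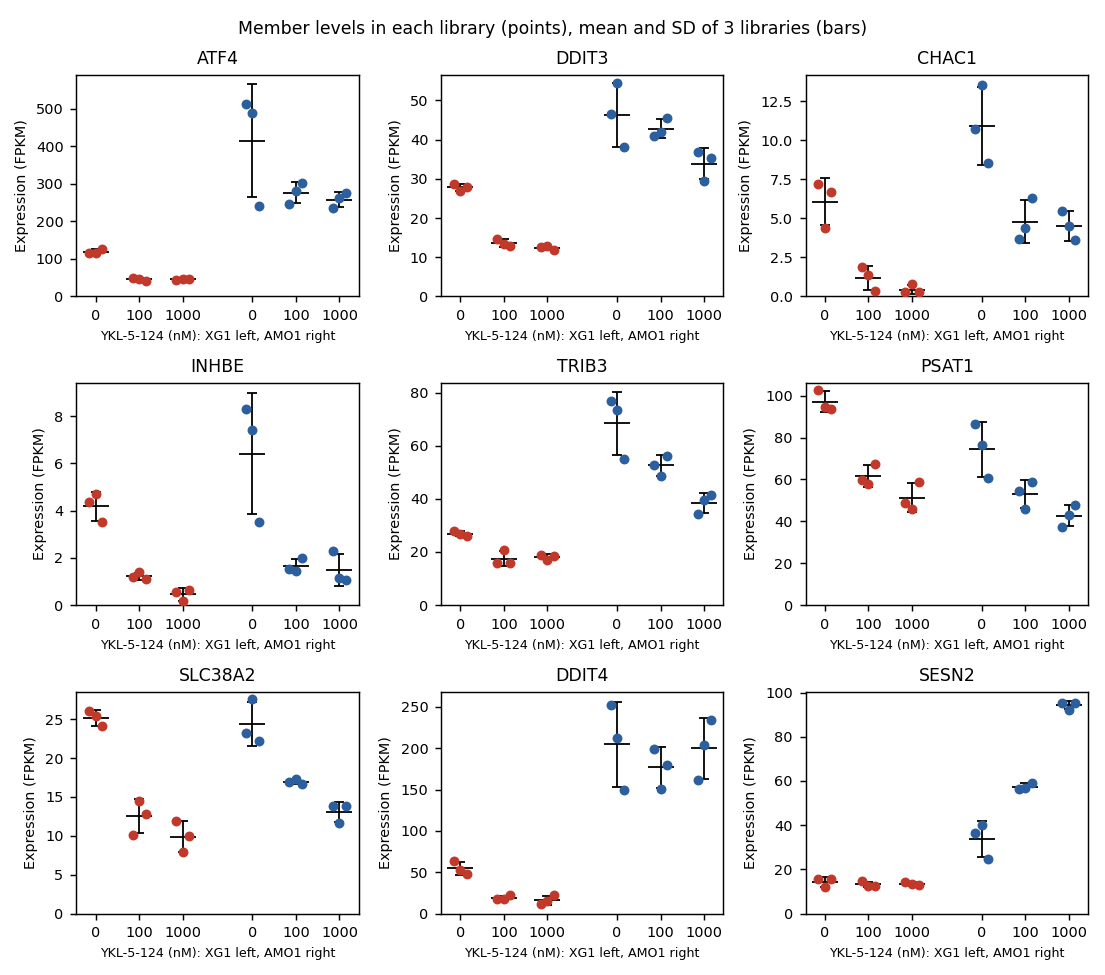
Levels of 9 members in FPKM on linear axes that start at 0, against the dose of YKL-5-124 in nM (0 is DMSO), XG1 libraries in red on the left and AMO1 libraries in blue on the right of each panel; points are libraries and bars the mean ± SD of 3. ATF4, DDIT3 and DDIT4 are low at both doses in the XG1 libraries, and SESN2 climbs from 24.7 to 40.3 FPKM in DMSO to 92.2 to 95.5 FPKM at 1000 nM in AMO1.

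The step from 100 to 1000 nM was compared within each line. Of the 37 members 0 passed in the XG1 libraries and 0 in AMO1, where 0.139% and 0.180% of all genes did. At an unadjusted p under 0.05 the member numbers were 5 and 9. The share of all genes at that unadjusted threshold was not counted, so these numbers have no background. The XG1 libraries at the 2 doses lay apart for 8 members, 7 of them lower at 1000 nM (16.5% of all genes were) and 1 higher, EIF4EBP1 (0.991% were). In AMO1 they lay apart for 13, 12 lower (19.3% of all genes) and 1 higher, SESN2 (2.85%). SESN2 had the largest rise with the step in AMO1 (0.71 ± 0.16, adjusted p = 0.084), and was called with a pseudocount of 5, after centring, after quantile normalization and in a fit of only the libraries compared. In the XG1 libraries PSPH changed most (-0.79 ± 0.22, adjusted p = 0.114), and passed without 1000 nM replicate 3 (-0.997, adjusted p = 0.0307); INHBE changed by -0.63 ± 0.24, adjusted p = 0.212. ATF4 had a step of 0.02 in the XG1 libraries (95% confidence interval -0.40 to 0.43) and -0.10 in AMO1 (-0.52 to 0.32).

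The responses of the lines were then compared directly, as the change in the XG1 libraries minus the change in AMO1. At 100 nM 0 members passed, beside 0.156% of all genes. At an unadjusted p under 0.05 there were 8 members, a threshold at which the share of all genes was not counted. At 1000 nM 2 passed, beside 0.680%. DDIT4 had a difference of -1.70 ± 0.31, adjusted p = 0.00955: it fell in the XG1 libraries and its groups overlapped in AMO1. SESN2 had a difference of -1.55 ± 0.23, adjusted p = 0.0014: it rose in AMO1 and its groups overlapped in the XG1 libraries. Both differences passed in all 22 alternative settings tried, which included leaving out each library concerned. Of the other members, ATF4 differed by -0.74 ± 0.28, adjusted p = 0.318, CHAC1 by -1.19 ± 0.37, adjusted p = 0.177, and PPP1R15A by -0.58 ± 0.20, adjusted p = 0.23, none past the threshold. PYCR1 differed by 0.46 (adjusted p = 0.508), and by 0.68 (adjusted p = 0.0358) without AMO1 DMSO replicate 3. At 100 nM DDIT3 differed by -0.88 ± 0.20, adjusted p = 0.0966, DDIT4 by -1.28 ± 0.31, adjusted p = 0.117, and SESN2 by -0.88 ± 0.23, adjusted p = 0.157; all 3 passed after centring, and DDIT4 and DDIT3 also after quantile normalization.

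**Figure D3:**
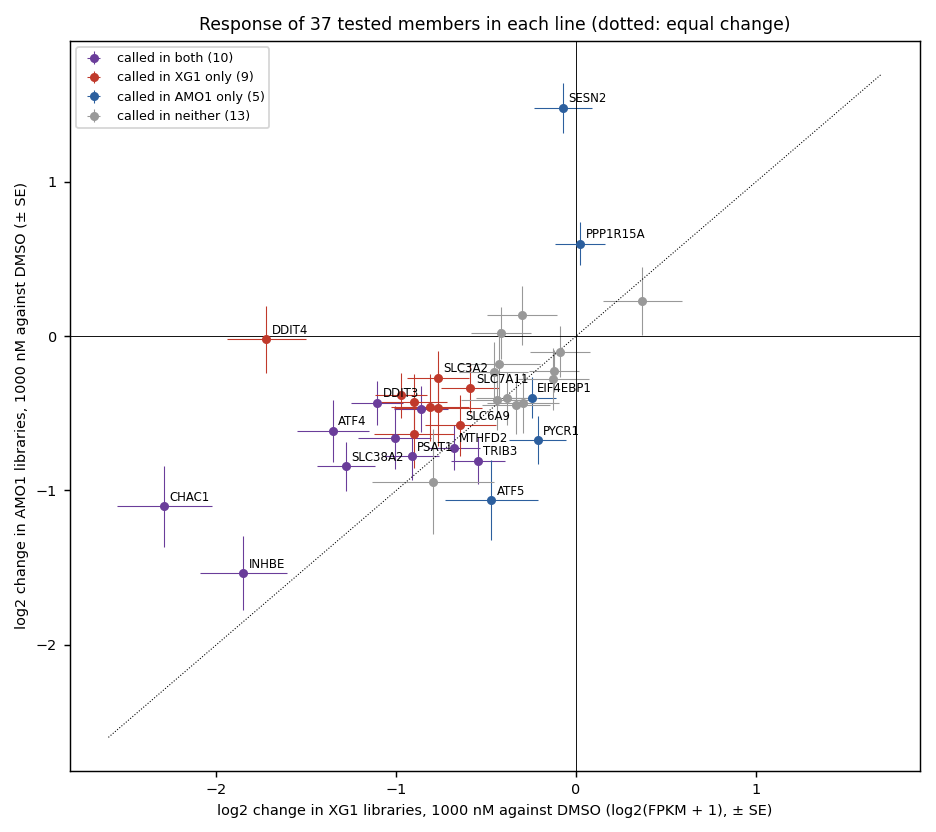
Log2 change at 1000 nM against DMSO of the 37 tested members in the XG1 libraries (x axis) and in AMO1 (y axis), with bars of 1 SE and a dotted line of equal change; colours give where the member was called, and 7 called members in the crowded centre carry no name. Most points lie below 0 on both axes; DDIT4 lies near 0 in AMO1, and SESN2 and PPP1R15A lie near 0 in the XG1 libraries and above 0 in AMO1.

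How far the AMO1 results rest on DMSO replicate 3 was read from the fit without it. At 100 nM the calls went from 2 lower and 1 higher to 9 lower and 2 higher, while the share of all genes called went from 2.20% to 7.72%. The members that entered were ATF4, ATF5 (-1.03, adjusted p = 0.00163), GPT2 (-0.92, adjusted p = 0.00459), PSAT1, PYCR1 (-0.53, adjusted p = 0.00964), SLC7A1, TRIB3 and PPP1R15A. At 1000 nM 13 lower and 2 higher became 20 lower and 2 higher, with 24.8% of all genes called; ASNS, GPT2 (-0.87, adjusted p = 0.00160), PSPH, SLC1A4 (-0.58, adjusted p = 0.0479), SLC3A2 (-0.50, adjusted p = 0.0139), SLC6A9 (-0.79, adjusted p = 0.00691) and SLC7A5 (-0.60, adjusted p = 0.00717) entered. Without AMO1 DMSO replicate 1, or without replicate 2, 9 members were called at 1000 nM. The share of all genes called was then 10.2% and 9.73%, beside 17.1% with all libraries. In the XG1 libraries, leaving out 1000 nM replicate 2 took the 19 lower members to 13, and the share of all genes called to 9.70%.

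**Figure D4:**
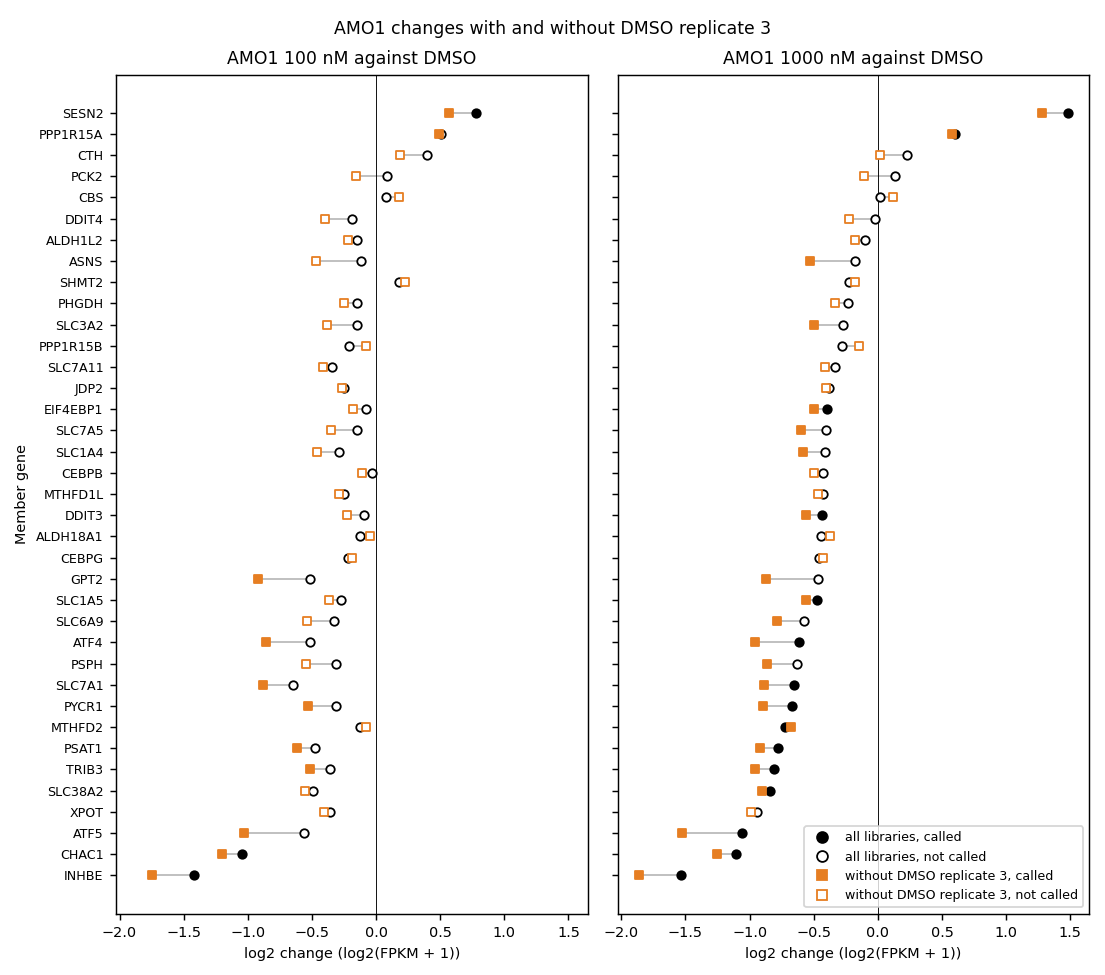
Log2 change of the 37 tested members in AMO1 at 100 nM (left) and 1000 nM (right) against DMSO, with all libraries (black circles) and without DMSO replicate 3 (orange squares), filled where called; lines join the values of a gene. Most members move to lower values without that library, among them ATF4, ATF5, GPT2 and ASNS, and SESN2 stays above 0 at both doses.

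Before the inhibitor most members that differed between the lines were lower in the XG1 libraries. In DMSO 26 of 37 members differed (70.3%), 5 higher and 21 lower in the XG1 libraries, beside 62.7% of all genes (28.3% higher, 34.4% lower); the median difference was -0.67, against -0.08 over all genes. The ATF4 levels given above are an example (-1.71 ± 0.20, adjusted p = 2.68e-07), and DDIT4 (-1.87 ± 0.22, adjusted p = 2.66e-07), TRIB3 (-1.30 ± 0.15, adjusted p = 2.59e-07), ASNS (-1.74 ± 0.23, adjusted p = 1.42e-06) and SLC7A5 (-2.36 ± 0.17, adjusted p = 2.11e-10) were lower as well. SLC1A4 was at 0.686, 1.55 and 0.718 FPKM in the XG1 libraries and 12.2, 13.6 and 8.78 in AMO1 (-2.67 ± 0.20, adjusted p = 3.53e-10). The 5 higher members were CBS, PHGDH, JDP2, CEBPG and PSAT1. The call of CEBPG ended without XG1 DMSO replicate 1 or 2 (adjusted p 0.05 to 0.0542), and that of PSAT1 (0.39, adjusted p = 0.0328) without either of them (adjusted p 0.0599 to 0.0965) or without AMO1 DMSO replicate 3 (0.25, adjusted p = 0.128). Of the lower members, CHAC1 lost the call without replicate 2 of either line (adjusted p 0.0868 to 0.0991), and SLC6A9 without XG1 DMSO replicate 2 or 3, or without AMO1 DMSO replicate 1 or 2 (adjusted p 0.062 to 0.217). CBS was at 87.0, 75.1 and 74.0 FPKM against 0.116, 0.240 and 0.438, so that it was listed at under 1 FPKM in AMO1, and PHGDH was at 32.4, 34.0 and 34.7 against 12.7, 14.9 and 10.97 FPKM (1.33 ± 0.19, adjusted p = 4.81e-06). SLC38A2 (0.05, adjusted p = 0.793) and INHBE (-0.45, adjusted p = 0.106) were members that did not pass. Without AMO1 DMSO replicate 3, INHBE (-0.78, adjusted p = 0.00424), SLC3A2 (-0.47, adjusted p = 0.00637) and CTH (-0.52, adjusted p = 0.0487) were called lower in the XG1 libraries. The 44 spike-ins used differed between the lines with an SD of 0.552 log2, from -1.36 to 1.05, although the median SD within a line was 0.139 and 0.143, an error of comparisons between lines that the SE above leaves out.

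Other genes of the pathway, taken from lists written with the members, were set beside them at 1000 nM. Of 16 genes for the eIF2 kinases, eIF2 and eIF2B subunits and their activators, 1 fell in the XG1 libraries (6.25%) and 3 in AMO1 (18.8%), and 0 rose, shares below and near the 15.7% and 15.4% of all genes called lower. The gene that fell in both was OMA1, a mitochondrial protease that relays mitochondrial stress to eIF2 (-0.83 ± 0.22, adjusted p = 0.014, and -0.99 ± 0.22, adjusted p = 0.00424); the XG1 call ended without DMSO replicate 1, or without 1000 nM replicate 2 (adjusted p 0.0544 to 0.0586). In AMO1 KIAA0141, which encodes DELE1, the substrate of OMA1, changed by -0.62 ± 0.20, adjusted p = 0.0348, and EIF2B3, an eIF2B subunit, by -0.57 ± 0.17, adjusted p = 0.029. Those calls ended without DMSO replicate 1 or 2, or without 1000 nM replicate 1, 2 or 3 (adjusted p 0.0562 to 0.196), and without DMSO replicate 1 or 2, or without 1000 nM replicate 1 or 2 (adjusted p 0.0696 to 0.158), respectively.

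Of 20 tested genes on a list of other reported ATF4 or stress response targets, 1 rose and 6 fell in the XG1 libraries. Of all genes 1.9% rose and 15.7% fell there. In AMO1 6 of the 20 rose and 4 fell, beside 1.78% and 15.4% of all genes. The median change of the list was -0.02 in the XG1 libraries and 0.28 in AMO1, beside -0.19 and -0.18 over all genes. GDF15, a secreted stress cytokine that is also a p53 target, rose in both: in the XG1 libraries from 34.5, 42.3 and 41.3 to 110.0, 90.2 and 119 FPKM (1.41 ± 0.20, adjusted p = 9.62e-05), and in AMO1 from 36.7, 32.2 and 17.7 to 202, 231 and 225 FPKM (2.94 ± 0.20, adjusted p = 2.38e-08). GADD45A, a growth arrest gene (1.17 ± 0.26, adjusted p = 0.00455), and SESN1, a paralog of SESN2 (1.01 ± 0.18, adjusted p = 0.000844), rose in AMO1; both are known p53 targets too, as is SESN2. HERPUD1, an endoplasmic reticulum stress gene, fell in both lines (-1.45 ± 0.17, adjusted p = 9.97e-06, and -1.67 ± 0.17, adjusted p = 3.06e-06). FAM129A, an eIF2 stress target, fell in the XG1 libraries (-1.01 ± 0.18, adjusted p = 0.000985), and VEGFA, an angiogenic factor (-0.96 ± 0.21, adjusted p = 0.00404), and RAB39B, a small GTPase (-0.94 ± 0.18, adjusted p = 0.00144), fell in AMO1. ATF3, a bZIP factor, fell in the XG1 libraries (-0.99 ± 0.25, adjusted p = 0.00898) and rose in AMO1 (0.74 ± 0.25, adjusted p = 0.0423). The ATF3 calls ended without DMSO replicate 1, or without 1000 nM replicate 1 (adjusted p 0.0544 to 0.0584) in the XG1 libraries and without DMSO replicate 1, 2 or 3, or without 1000 nM replicate 2 or 3 (adjusted p 0.0524 to 0.134) in AMO1.

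Of 21 tested further enzymes of amino acid and folate metabolism, 3 fell in the XG1 libraries (14.3%) and 2 in AMO1 (9.52%), and 0 rose, shares below the 15.7% and 15.4% of all genes called lower. Among them were MAT2A, which makes S-adenosylmethionine (-0.97 ± 0.32, adjusted p = 0.049) and GLUL, glutamine synthetase (-0.67 ± 0.20, adjusted p = 0.0222), in the XG1 libraries, and PYCRL, a proline synthesis enzyme (-0.60 ± 0.17, adjusted p = 0.0205), and GLDC, of the glycine cleavage system (-0.55 ± 0.18, adjusted p = 0.0452), in AMO1. These 4 calls ended when single libraries were left out: MAT2A without DMSO replicate 1, 2 or 3, or without 1000 nM replicate 1 or 2 (adjusted p 0.0811 to 0.16); GLUL without DMSO replicate 1 or 2, or without 1000 nM replicate 2 (adjusted p 0.0704 to 0.126); PYCRL without DMSO replicate 1 or 2, or without 1000 nM replicate 2 or 3 (adjusted p 0.0624 to 0.101); GLDC without DMSO replicate 2 or 3, or without 1000 nM replicate 1, 2 or 3 (adjusted p 0.0521 to 0.16). Of 9 tested other transporters, 3 fell in the XG1 libraries (33.3%) and 1 in AMO1 (11.1%), beside the same 15.7% and 15.4%. SLC38A1, a paralog of SLC38A2 that also imports glutamine, fell in both, from 9.82, 11.02 and 8.95 to 3.78, 3.32 and 5.24 FPKM in the XG1 libraries (-1.11 ± 0.18, adjusted p = 0.000341) and from 31.6, 39.3 and 35.2 to 17.5, 18.3 and 17.4 FPKM in AMO1 (-0.95 ± 0.18, adjusted p = 0.00122), with no overlap of groups. SLC38A9, the lysosomal arginine sensor (-0.70 ± 0.21, adjusted p = 0.0241), and SLC1A3, a glutamate transporter (-0.68 ± 0.20, adjusted p = 0.026), fell in the XG1 libraries, calls that ended without DMSO replicate 1 or 2, or without 1000 nM replicate 1 or 2 (adjusted p 0.0539 to 0.13), and without DMSO replicate 1, or without 1000 nM replicate 2 (adjusted p 0.122 to 0.155).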

How the data were processed

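The labels gave the group and replicate number of each of 18 libraries, 6 groups of 3. Per the labels' protocols RNA was purified on columns and made into QuantSeq 3′ libraries. HISAT2, Cuffnorm and hg19 are named in the notes on the authors' processing (per the submitters' processing notes). The tools' versions, the annotation and how strand was handled were not given in the sources used here. Deposited levels are taken as FPKM, a unit inferred from the name Cuffnorm, since the file headers say only expression. How the commonest low value of each library arose was not tested. Whether the levels were altered after Cuffnorm is not known. They are not counts, so the depth is unknown, no counting interval could be set, and reads of overlapping or antisense genes may not be separated.

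Of 26249 genes (92 ERCC spike-ins apart), the 12204 whose mean reached 1 FPKM in some group were tested with limma 3.58.1 (R 4.3.3, statmod 1.5.0; trend and robust) on log2(FPKM + 1), in 1 fit with a coefficient for each group, two-sided, with Benjamini-Hochberg adjustment and a threshold of 0.05, in 9 comparisons. The procedure was tested on simulated data. The 40 members, the gene lists and the tests were chosen with earlier results of these data known, so no pattern here is independent support for an earlier one. All members were to be named; values per library were given for the 12 with the smallest adjusted p in any comparison of a dose with DMSO, and for others where an overlap is described, the latter chosen after their values were seen. From each list of other pathway genes up to 3 called genes per direction and line at 1000 nM were named by absolute change; 1 gene so chosen is not reported here. Promoters came from RefSeq (GRCh38.p14). Alternatives were the pseudocount (0.1 and 5), the filter (none and 5 FPKM), median centring, quantile normalization, spike-in scaling, limma without trend and robust estimation, only the libraries compared, the replicate number as a block, and each library left out.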

Additional observations from a re-analysis of the deposited data

Results flagged for a closer look

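The test of the difference between the lines' responses passed at 1000 nM for 2 of 37 members, beside 0.680% of all genes. It passed for 4 of 20 tested genes on the list of other stress response targets. On the other pathway lists it passed for 0 of 16, 0 of 21, 0 of 9 and 0 of 12 tested genes. For the 6 genes that passed, the difference is the log2 change in the XG1 libraries minus that in AMO1. It is given with limma's adjusted p over all genes. Among the members these were DDIT4, which restrains mTORC1 (-1.70, adjusted p = 0.00955; it fell in the XG1 libraries), and SESN2, which does so too (-1.55, adjusted p = 0.00140; it rose in AMO1). Among other stress response targets they were GDF15 (-1.53, adjusted p = 0.0101), which rose in both lines, and BBC3, an apoptosis gene also called PUMA (-1.54, adjusted p = 0.00598). BBC3 fell from 46.1, 43.6 and 50.03 to 25.9, 22.7 and 22.9 FPKM in the XG1 libraries and rose from 188, 187 and 99.1 to 221, 236 and 234 FPKM in AMO1; the AMO1 call (0.60) ended without DMSO replicate 3, where the change was 0.30 (adjusted p = 0.0819), or without 1000 nM replicate 1, 2 or 3 (adjusted p 0.0697 to 0.0946). The remaining 2 were ATF3 (-1.73, adjusted p = 0.0195) and GADD45A (-1.91, adjusted p = 0.0171), which rose in AMO1. The difference in ATF3 ended without XG1 DMSO replicate 1 or 2, or without XG1 1000 nM replicate 1, or without AMO1 DMSO replicate 2, or without AMO1 1000 nM replicate 2 or 3 (adjusted p 0.0578 to 0.07). That in GADD45A ended without XG1 DMSO replicate 1 or 2, or without AMO1 1000 nM replicate 2 (adjusted p 0.0523 to 0.0608). The other 4 differences passed in all 22 settings.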

How the results depend on the processing

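Depth could not be known from FPKM, so the limits here are the spread of 3 libraries and the scale. Member counts were 3 in AMO1 at 100 nM and 15 at 1000 nM, beside 2.20% and 17.1% of all genes. In AMO1 at 100 nM the count was 5 with a pseudocount of 5, 6 with quantile normalization and 0 in a fit of only the libraries compared. The shares of all genes called were 3.71%, 3.76% and 0.0492%. When 1 library was left out the count was 1 to 11, beside 0.819% to 7.72% of all genes. At 1000 nM it was 7 after centring and 9 in a fit of only the libraries compared, and 9 to 22 when 1 library was left out. In the XG1 libraries it was 8 to 12 and 13 to 20 at the 2 doses when 1 library was left out. The shares of all genes were then 3.24% to 5.02% and 9.08% to 21.0%. The step from 100 to 1000 nM gave 1 member in AMO1 with a pseudocount of 5, after centring, with quantile normalization and with only the libraries compared. Of all genes 0.303%, 0.164%, 0.180% and 0.107% passed there. In the XG1 libraries it gave 0 to 1 when 1 library was left out, beside 0.00819% to 2.54% of all genes. The lines' responses differed for 3 members after centring and 2 with quantile normalization at 100 nM, beside 0.541% and 0.623% of all genes. At 1000 nM they differed for 2 to 4 when 1 library was left out, beside 0.344% to 1.35% of all genes. In DMSO the count was 22 to 28 when 1 library was left out, beside 57.0% to 63.5% of all genes. Without the filter, all-gene counts were 560 (807 with it) and 1554 (2152) in the XG1 libraries. The cause of these changes was not tested.

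Changes of some members that were not called turned sign, and the values below are examples. After centring, the members with a negative change at 1000 nM went from 35 to 29 of 37 in the XG1 libraries. In AMO1 they went from 32 to 25. At 1000 nM in the XG1 libraries EIF4EBP1 became 0.0122 after centring and 0.04999 with quantile normalization, PYCR1 0.0449 after centring, and SESN2 0.19 and 0.25. In AMO1 DDIT3 became 0.0797 at 100 nM after centring, and at 1000 nM ASNS became 0.111 and 0.0530 and DDIT4 0.27 and 0.16. When 1 library was left out, the ranges were -0.049 to 0.16 (100 nM) and -0.056 to 0.089 (1000 nM) for PPP1R15A in the XG1 libraries, -0.23 to 0.024 for DDIT3 in AMO1 at 100 nM, -0.53 to 0.0086 and -0.23 to 0.14 for ASNS and DDIT4 in AMO1 at 1000 nM, and -0.0059 to 0.14 for SLC38A2 between the lines in DMSO. 

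With the replicate number as a block 9, 16, 2 and 10 members were called (XG1 at 100 and 1000 nM, then AMO1), beside 12, 19, 3 and 15 without it. The pairing was checked: deviations of same-numbered libraries from their group means correlated at -0.0519 to 0.0316 in the XG1 libraries and -0.124 to 0.0908 in AMO1. For differently numbered libraries the ranges were -0.108 to 0.122 and -0.129 to 0.125, so no pairing by number was seen. Whether same-numbered libraries share a culture cannot be settled by this check, and the labels do not say. All-gene counts under the block were 123 (268 without) in AMO1 at 100 nM and 486 (807) in the XG1 libraries. At 1000 nM they were 1454 (2091) in AMO1 and 1512 (2152) in the XG1 libraries.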

Other observations

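A list of 12 genes held NFE2L2, which encodes the oxidative stress factor NRF2, and glutathione and thioredoxin genes, which use the cystine and glycine that several members supply. At 1000 nM 5 of the 12 fell and 0 rose in the XG1 libraries, and 5 fell and 0 rose in AMO1, beside 15.7% and 15.4% of all genes called lower, with median changes of -0.39 and -0.39 beside -0.19 and -0.18 over all genes. GCLM, the modifier subunit of the enzyme that begins glutathione synthesis, fell in both (-1.13 ± 0.21, adjusted p = 0.00144 in the XG1 libraries; -0.69 ± 0.21, adjusted p = 0.0327 in AMO1, a call that ended without DMSO replicate 1 or 2, or without 1000 nM replicate 1, 2 or 3 (adjusted p 0.0693 to 0.165)). SRXN1, sulfiredoxin, fell in both as well (-0.97 ± 0.18, adjusted p = 0.00144; -0.84 ± 0.18, adjusted p = 0.0039), and held without each library in turn. GCLC, the catalytic subunit, fell in the XG1 libraries (-0.80 ± 0.20, adjusted p = 0.0081), a call that ended without 1000 nM replicate 2 (adjusted p = 0.0515). TXNRD1, thioredoxin reductase, fell in AMO1 (-0.70 ± 0.23, adjusted p = 0.0386), a call that ended without DMSO replicate 1, 2 or 3, or without 1000 nM replicate 1, 2 or 3 (adjusted p 0.0568 to 0.156). At 100 nM 1 of the 12 fell in the XG1 libraries and 0 in AMO1, beside 3.98% and 1.76% of all genes called lower. The difference between the lines did not pass for GCLM (-0.44, adjusted p = 0.713) or SRXN1 (-0.13, adjusted p = 0.93).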
